A study of Mus musculus with 18 samples.

Results

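The genes described here are 10 transcription factors of the heart: Gata4 and Gata6 (GATA zinc finger factors), Nkx2-5 (a homeodomain factor), Tbx5 and Tbx20 (T-box factors), Hand2 (a basic helix-loop-helix factor), and Mef2a, Mef2c, Mef2d and Srf (MADS-box factors). They were chosen as a textbook family by gene symbol, with earlier results of these data known. All 10 were found among the 49315 genes of each count table. The tables come from bulk RNA sequencing of the mid wall of the left ventricle of male mice on the 129SVE background, with 3 libraries in each of 6 groups. Wild type (WT) and KO mice were taken at each of 3, 6 and 10 weeks. KO is the label for mice without MLP, the muscle LIM protein that Csrp3 encodes, which sits at the cardiomyocyte Z-disc and whose loss gives a dilated, failing heart. The labels do not give the part of Csrp3 that was targeted, a promoter or a Cre driver, or whether the libraries of a group came from separate animals, so the p-values measure the spread between these libraries.

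These factors act together on shared regulatory regions of heart muscle genes. GATA4, NKX2-5 and TBX5 bind one another and activate genes such as Nppa, and TBX20 acts beside them as an activator and a repressor. HAND2 forms dimers with other basic helix-loop-helix proteins and is needed for the growth of the embryonic right ventricle. MEF2 proteins are held back by class II histone deacetylases and are released by calcium signalling. SRF binds CArG boxes and, through myocardin and its relatives, turns on actin and contractile genes. All 10 are already active in the embryonic heart, and several are known to take part in the response of the adult heart to load.

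Tbx20 was the member whose transcript was called higher in KO at each of the 3 ages, by between 1.58 and 1.95 times, with no overlap between the KO and WT libraries at any age. No other member was called at all 3 ages. Srf was higher in KO at 3 weeks, Gata4, Mef2c and Mef2d were higher at 6 weeks, and Mef2a was lower at 10 weeks. Hand2 was lower in KO at 6 weeks and higher at 10 weeks. The calls of Gata4 and Mef2d at 6 weeks and of Hand2 at 10 weeks did not hold in every fit without 1 library. Gata6, Nkx2-5 and Tbx5 were not called at any age in the fit of all 18 libraries. A value is called here when its adjusted p is under 0.05 in edgeR's quasi-likelihood test, with Benjamini-Hochberg adjustment over the 15778 genes tested. Unless another test is named, every adjusted p below comes from that edgeR fit.

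Promoter sequence, where a RefSeq entry was at hand, shows the kind of site these factors read. The lines that follow give 250 bases before the start of Srf, which is itself a known SRF target, of Acta1 (skeletal alpha-actin, an SRF target), of Nppa (atrial natriuretic peptide, a target of GATA, NKX and T-box factors) and of Hand2, a member with GATA letters in its own promoter. Sequences are from RefSeq on GRCm38.p6, 5′ to 3′ on the gene's strand. Capitals mark CArG boxes in Srf and Acta1, and GATAA or its reverse TTATC in Nppa and Hand2.
Srf, chr17:46556163-46556412, minus strand: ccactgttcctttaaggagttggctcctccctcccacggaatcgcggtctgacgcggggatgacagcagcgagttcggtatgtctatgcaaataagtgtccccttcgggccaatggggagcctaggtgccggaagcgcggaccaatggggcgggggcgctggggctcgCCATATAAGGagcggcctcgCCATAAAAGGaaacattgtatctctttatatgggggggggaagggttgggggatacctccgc
Acta1, chr8:123894776-123895025, minus strand: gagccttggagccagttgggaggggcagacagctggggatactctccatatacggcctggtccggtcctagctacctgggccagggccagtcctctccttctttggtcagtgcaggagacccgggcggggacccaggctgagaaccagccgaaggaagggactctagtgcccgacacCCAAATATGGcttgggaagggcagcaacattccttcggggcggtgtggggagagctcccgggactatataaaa
Nppa, chr4:148000472-148000721, plus strand: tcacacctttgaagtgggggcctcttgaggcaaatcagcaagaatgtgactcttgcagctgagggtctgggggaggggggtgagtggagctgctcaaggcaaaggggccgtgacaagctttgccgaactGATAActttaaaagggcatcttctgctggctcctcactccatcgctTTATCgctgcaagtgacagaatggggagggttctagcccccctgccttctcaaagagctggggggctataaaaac
Hand2, chr8:57320733-57320982, plus strand: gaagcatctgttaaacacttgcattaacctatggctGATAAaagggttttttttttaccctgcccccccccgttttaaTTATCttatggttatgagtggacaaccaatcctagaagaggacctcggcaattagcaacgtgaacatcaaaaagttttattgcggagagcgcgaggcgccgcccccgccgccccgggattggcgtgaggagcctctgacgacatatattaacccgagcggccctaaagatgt
The CArG boxes of Srf, CCATATAAGG and CCATAAAAGG, begin 82 and 62 bases before the gene start. That of Acta1, CCAAATATGG, begins 73 bases before it. In Nppa, GATAA begins 121 bases and TTATC 75 bases before the start, and in Hand2 the same letters begin 214 and 172 bases before it. No stretch in capitals matched another of the motifs searched. Matches of the other motifs are not marked in these sequences.

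Motifs were searched on both strands in windows of 250 bases before to 50 bases after each start. A CArG box lay in 1.63% of 32851 promoters, a MEF2 site in 3.19% and GATAA in 25.4%. Promoters were matched for 7 of the 10 members. No entry was matched to Gata4 or Tbx5, and chromosome 18, which holds Gata6, was left out of the matching. Among these 7, a CArG box was found in 1 gene (Srf), a MEF2 site in 1 gene (Mef2a) and GATAA in 2 genes (Hand2 and Mef2c). Of the 17 textbook SRF targets with a promoter, 8 held a CArG box, against 0 of 13 targets of the GATA, NKX and T-box factors and 0 of 13 MEF2 targets. A MEF2 site lay in 4 of the 13 MEF2 targets, against 1 of the 17 SRF targets and 0 of the 13 targets of GATA, NKX and T-box factors. GATAA lay in 5 of those 13 targets, and as well in 5 of the 13 MEF2 targets and 4 of the 17 SRF targets. In these counts a gene is taken as matched if any of its promoters held the motif, whereas the shares in percent are of single promoters. Genes with several promoters are thus more easily matched, and the counts and shares are not alike. These are matches of letters and do not show binding.

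Library totals ran from 14980968 to 23001047 counts, and the lowest count of any member in any library was 235. Csrp3 was at 951 to 1486 CPM (counts scaled to library size with TMM factors) in the WT libraries and at 1134 to 3416 CPM in the KO libraries, and its log2 fold changes at 3, 6 and 10 weeks were 0.80 (SE 0.29, adjusted p = 0.081), 0.57 (SE 0.29, adjusted p = 0.19) and 1.29 (SE 0.30, adjusted p = 0.0041). Counts over the whole gene were thus not lower in the libraries labelled KO, and with the targeted part unknown they do not check the labels; KO below means labelled KO. Cardiomyocyte markers were present in every library, with a summed level of 78334 to 110512 CPM in WT and 97719 to 133849 CPM in KO, and none of the 10 was at 0. Summed endothelial markers ran from 813 to 1090.0 CPM in WT and from 635 to 959 CPM in KO, and summed fibroblast markers from 623 to 857 CPM in WT and from 775 to 1169 CPM in KO. Single markers went both ways in the fibroblast list of 7, with 1 called higher and 2 lower in KO at 3 weeks. At 6 weeks 4 were higher and 1 lower, and at 10 weeks 1 was higher and 1 lower. For the 7 endothelial markers these counts were 0 and 0, 0 and 1, and 0 and 3, beside the shares of all genes given below. The part of this cell makeup in the results was not tested, and in bulk tissue fewer cells of a type and less RNA per cell cannot be told apart. KO replicate 3 at 3 and at 6 weeks and KO replicate 1 at 10 weeks stood apart in their content of 5 atrial markers (Myl4, Myl7, Sln, Bmp10 and Mybphl), with sums of 255, 860.3 and 2393 CPM against 2.36 to 45.4 CPM in the other 15 libraries. Of the 5, Myl4 was the most abundant in those 3 libraries (118, 436 and 1145 CPM), and Bmp10 was at 0 in all 3. Results that rest on these libraries are given with and without them, a setting chosen after seeing the data. The planned setting left out the 5 libraries over 5 times the median sum. In it, 44 calls of the genes named from lists below were kept and 7 were lost. Without the 3 libraries these counts were 49 and 2.

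Set against each other per kilobase of counted exon length, the members kept to a wide range. In WT at 10 weeks the order from low to high was Mef2c at 2.73 ± 0.23 CPM per kilobase (mean ± SD, n = 3), Tbx20 at 5.0 ± 0.73, Tbx5 at 5.97 ± 0.29, Mef2a at 11.5 ± 0.27, Gata6 at 22.9 ± 0.91, Hand2 at 31.8 ± 2.45, Gata4 at 38.3 ± 2.43, Mef2d at 41.2 ± 0.46, Srf at 53.5 ± 2.98 and Nkx2-5 at 84.6 ± 11.6 CPM per kilobase. No neighbours in this order overlapped in their 3 WT libraries at 10 weeks. In WT at 3 weeks, Mef2d, Gata6, Srf and Hand2 lay between 27.3 and 32.2 CPM per kilobase on average and each overlapped the next in that order. In KO at 10 weeks Tbx20 stood at 9.78 ± 1.29 CPM per kilobase, above Mef2a at 6.61 ± 1.41, which is the reverse of their order in WT. Tbx5 spread from 3.04 to 10.3 CPM per kilobase in that group and overlapped both.

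**Figure D1:**
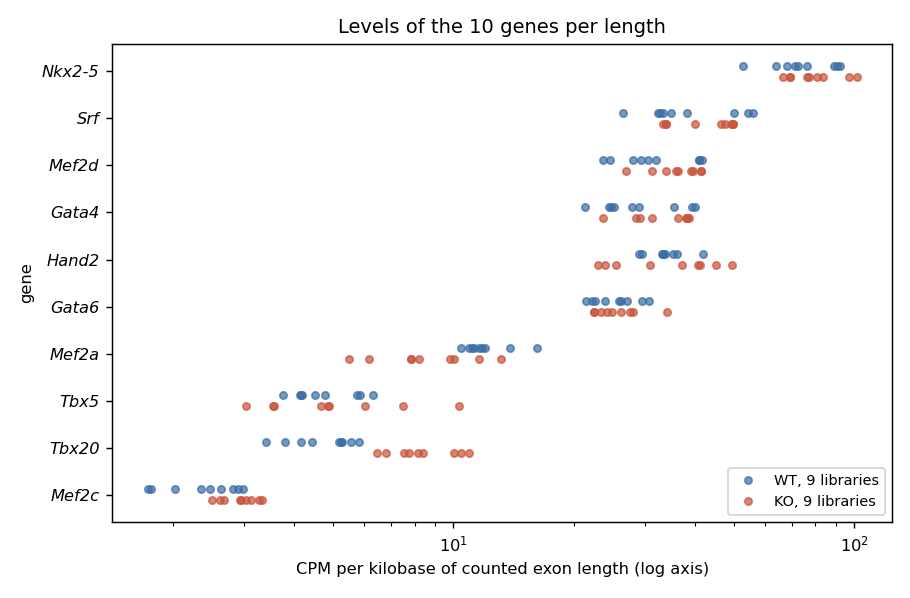
Level of each of the 10 genes in CPM per kilobase of counted exon length (log axis), 1 point per library, with 9 WT and 9 KO libraries per gene. Nkx2-5 has the highest levels and Mef2c the lowest WT levels, and Tbx20 is the gene whose 9 KO points all lie to the right of its 9 WT points.

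Counts of called members are read against all genes. At 3 weeks 2 members were higher and 0 lower, where 8.65% of all genes tested were called higher and 6.68% lower (15.3% in all). At 6 weeks 4 were higher and 1 lower, against 11% and 12.8% of all genes (23.8% in all). At 10 weeks 2 were higher and 1 lower, against 14.6% and 14.7% (29.3% in all). KO and WT libraries did not overlap for 4 members at 3 weeks (30.5% of all genes), 7 at 6 weeks (44.2%) and 5 at 10 weeks (40.5%). The median log2 fold change of the members was 0.30, 0.23 and -0.02 at 3, 6 and 10 weeks, beside 0.00, 0.00 and -0.03 over all genes. Of all calls, 56.4%, 46.1% and 49.9% were higher in KO at the 3 ages, and with library totals in place of TMM the shares were 51.1%, 58.5% and 32.6%. Without the 3 libraries rich in atrial transcripts, 3 members were higher and 0 lower at 3 weeks, 4 and 1 at 6 weeks, and 1 (Tbx20) and 2 (Mef2a and Tbx5) at 10 weeks.

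**Figure D2:**
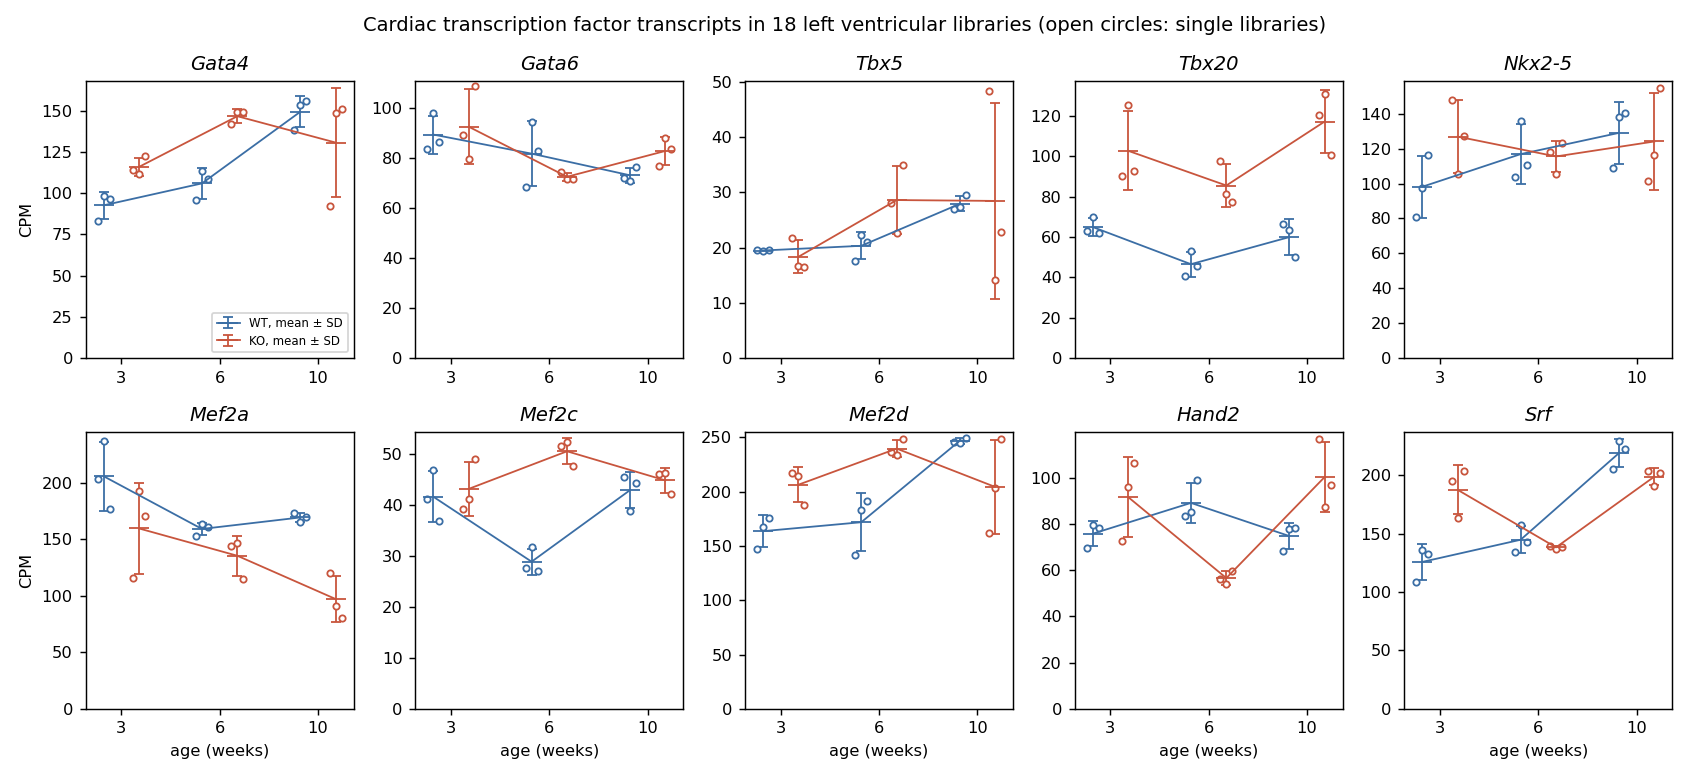
CPM of each gene (y axis from 0) against age in weeks, with open circles for single libraries and bars for mean ± SD of 3 libraries per group. Tbx20 runs from 77.4 to 131 CPM in KO and from 40.8 to 69.9 CPM in WT, and the KO and WT lines of Mef2c and Hand2 part at 6 weeks.

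Tbx20 (GRCm38, chromosome 9, 24718138 to 24774303, minus strand) encodes a T-box factor that the adult heart needs for its contraction and rhythm. At 3 weeks, Tbx20 was at 63.1, 69.9 and 62.1 CPM in WT and at 90.2, 125 and 92.9 CPM in KO. At 6 weeks, Tbx20 was at 40.8, 53.3 and 45.6 CPM in WT and at 97.9, 81.5 and 77.4 CPM in KO. At 10 weeks, Tbx20 was at 66.6, 63.3 and 50.1 CPM in WT and at 120.4, 131 and 101 CPM in KO. Every KO library lay above every WT library, at the same age and across ages. For Tbx20, the log2 fold changes of KO against WT at 3, 6 and 10 weeks were 0.66 (SE 0.14, adjusted p = 0.0033), 0.88 (SE 0.15, adjusted p = 0.00012) and 0.97 (SE 0.14, adjusted p = 3.2e-05). These effects were not shown to differ between ages, with differences of 0.22 (6 minus 3 weeks, adjusted p = 0.66), 0.09 (10 minus 6 weeks, adjusted p = 0.84) and 0.31 (10 minus 3 weeks, adjusted p = 0.44). Each of the 3 calls held in every fit that left out 1 library. Without the 3 libraries rich in atrial transcripts the effects were 0.72, 0.95 and 0.97, all called.

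Tbx5 (chromosome 5, 119832668 to 119885219, plus strand) encodes the T-box factor mutated in Holt-Oram syndrome, and its transcript is known to be more abundant in atrium than in ventricle. In WT, Tbx5 was at 19.5, 19.3 and 19.6 CPM at 3 weeks, 17.6, 22.3 and 21.1 CPM at 6 weeks and 26.9, 27.3 and 29.5 CPM at 10 weeks. In KO, Tbx5 was at 21.8, 16.6 and 16.6 CPM at 3 weeks, 28.1, 22.7 and 35.0 CPM at 6 weeks and 48.3, 14.2 and 22.9 CPM at 10 weeks. At 10 weeks the WT libraries lay close together, while 1 KO library lay far above them and the other two below. At 6 weeks all KO libraries were above all WT libraries. Genotype effects at 3, 6 and 10 weeks were -0.09 (SE 0.31, adjusted p = 0.89), 0.49 (SE 0.30, adjusted p = 0.28) and 0.02 (SE 0.30, adjusted p = 0.97), none of them called. The highest Tbx5 value at 6 weeks and at 10 weeks was in the library with the highest atrial marker sum of that age. At 3 weeks this was not so: the library with the highest sum (255 CPM) had the lowest Tbx5 of that age (16.6 CPM), and the highest Tbx5 (21.8 CPM) was in KO replicate 1, with the lowest sum (2.36 CPM). Without KO replicate 1 at 10 weeks the effect at that age was -0.55 (adjusted p = 0.033), and without all 3 libraries rich in atrial transcripts it was -0.57 (adjusted p = 0.020). At 6 weeks the effect without those libraries was 0.32 (adjusted p = 0.20). A fit of the 6-week libraries alone called Tbx5 higher (log2 0.49, adjusted p = 0.021), as did the fit with no filter on low counts (adjusted p = 0.011).

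**Figure D3:**
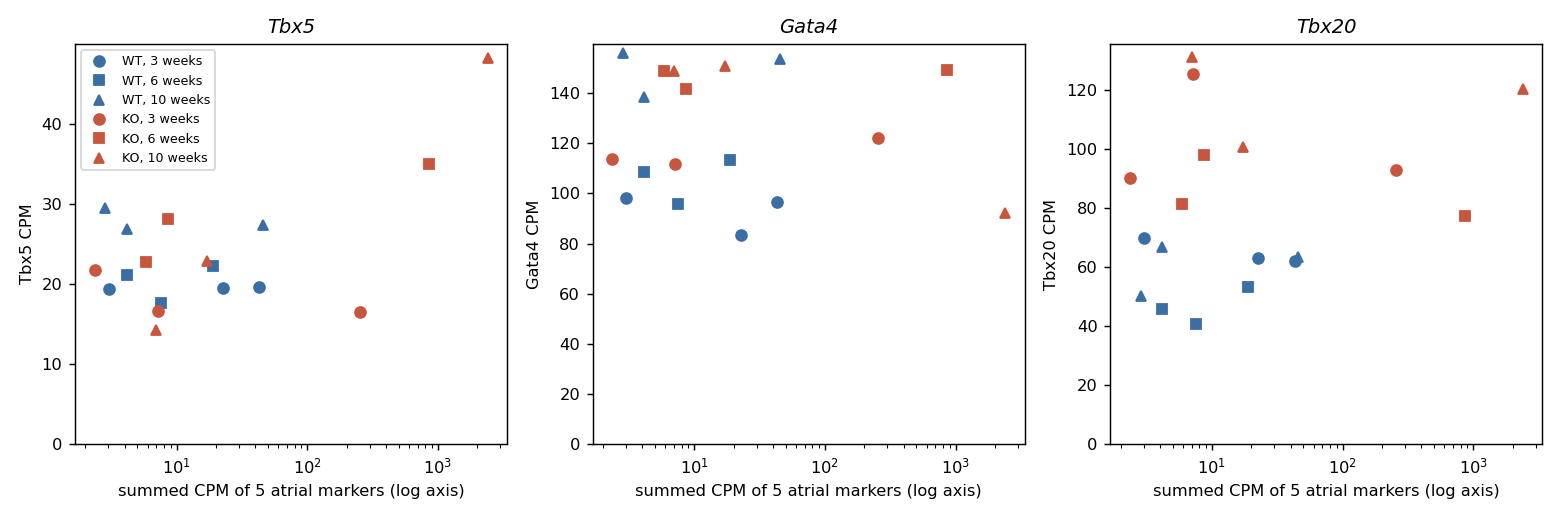
CPM of Tbx5, Gata4 and Tbx20 (y axes from 0) against the summed CPM of 5 atrial markers (log axis) in 18 libraries, coloured by genotype, with a symbol per age. The library at 2393 CPM of atrial markers, KO replicate 1 at 10 weeks, has the highest Tbx5 (48.3 CPM) and the lowest KO value of Gata4 (92.3 CPM), while its Tbx20 (120.4 CPM) lies among the other KO libraries.

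Gata4 (chromosome 14, 63198922 to 63271692, minus strand) encodes a zinc finger factor known to drive the growth response of the adult cardiomyocyte. At 3 weeks, Gata4 was at 83.3, 98.0 and 96.5 CPM in WT and at 114, 112 and 122 CPM in KO. At 6 weeks, Gata4 was at 95.7, 113 and 109 CPM in WT and at 142, 149 and 149 CPM in KO. At 10 weeks, Gata4 was at 138, 154 and 156 CPM in WT and at 92.3, 149 and 151 CPM in KO. The KO libraries lay above all WT libraries at 3 and at 6 weeks, and at 10 weeks 2 of them lay within the WT range and 1 far below it. That low library is KO replicate 1, the richest in atrial transcripts. For Gata4 the log2 fold changes at 3, 6 and 10 weeks were 0.32 (SE 0.14, adjusted p = 0.11), 0.47 (SE 0.14, adjusted p = 0.014) and -0.19 (SE 0.14, adjusted p = 0.31), of which the second was called. It lost its call without WT replicate 1 (0.41, adjusted p = 0.078). At 10 weeks the effect without KO replicate 1 was 0.04 (adjusted p = 0.82). In WT, Gata4 rose from 6 to 10 weeks by 0.50 (SE 0.14, adjusted p = 0.026) and from 3 to 10 weeks by 0.69 (SE 0.14, adjusted p = 0.0014). The first of these rises lost its call in 4 of the 6 fits without 1 library, with adjusted p up to 0.14 without WT replicate 1 at 6 weeks. In KO no change of Gata4 with age was called. Its level in KO at 6 weeks, 147 ± 4.29 CPM (SD, n = 3), was close to the WT level at 10 weeks, 149 ± 9.50 CPM, and the libraries of these 2 groups overlapped.

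Gata6 (chromosome 18, 11052064 to 11085635, plus strand in GENCODE M21) encodes a second GATA factor of heart muscle. In WT, Gata6 was at 83.8, 98.1 and 86.6 CPM at 3 weeks, 68.3, 94.4 and 82.8 CPM at 6 weeks and 72.2, 70.9 and 76.5 CPM at 10 weeks. In KO, Gata6 was at 89.5, 79.6 and 109 CPM at 3 weeks, 74.5, 71.7 and 71.6 CPM at 6 weeks and 77.0, 88.1 and 83.7 CPM at 10 weeks. KO and WT overlapped at 3 and at 6 weeks, and at 10 weeks every KO library was above every WT library by a small margin. No genotype effect was called, with values of 0.05 (SE 0.12, adjusted p = 0.83), -0.17 (SE 0.12, adjusted p = 0.33) and 0.18 (SE 0.12, adjusted p = 0.29) at 3, 6 and 10 weeks. The gene 1010001N08Rik, at 5.93 to 15.7 CPM, overlaps Gata6 on the opposite strand, and with the strand setting of the counts unknown their reads cannot be told apart.

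Nkx2-5 (chromosome 17, 26838664 to 26841565 in the count files, minus strand) encodes the homeodomain factor that marks heart muscle from its first appearance. In WT, Nkx2-5 was at 80.7, 97.3 and 116 CPM at 3 weeks, 104, 136 and 111 CPM at 6 weeks and 109, 138 and 140.4 CPM at 10 weeks. In KO, Nkx2-5 was at 148, 106 and 127 CPM at 3 weeks, 118, 106 and 123 CPM at 6 weeks and 101, 116 and 155 CPM at 10 weeks. Groups overlapped at every age. Its genotype effects at 3, 6 and 10 weeks were 0.37 (SE 0.17, adjusted p = 0.14), -0.02 (SE 0.16, adjusted p = 0.96) and -0.06 (SE 0.17, adjusted p = 0.84). With no filter on low counts the value at 3 weeks was called (log2 0.38, adjusted p = 0.035). No change with age was called in either genotype.

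Hand2 (chromosome 8, 57320983 to 57324633, plus strand) had genotype effects of opposite sign at 6 and at 10 weeks. At 3 weeks, Hand2 was at 69.5, 79.5 and 78.2 CPM in WT and at 72.7, 95.8 and 106 CPM in KO. At 6 weeks, Hand2 was at 83.2, 85.1 and 98.9 CPM in WT and at 56.1, 53.8 and 59.7 CPM in KO. At 10 weeks, Hand2 was at 68.1, 77.7 and 78.4 CPM in WT and at 117, 87.3 and 96.8 CPM in KO. All KO libraries were below all WT libraries at 6 weeks and above them at 10 weeks, and the genotypes overlapped at 3 weeks. Hand2 thus had log2 fold changes at 3, 6 and 10 weeks of 0.28 (SE 0.13, adjusted p = 0.16), -0.66 (SE 0.13, adjusted p = 0.00076) and 0.42 (SE 0.13, adjusted p = 0.017). The effect at 6 weeks was called in every fit without 1 library and was -0.69 without the 3 libraries rich in atrial transcripts. The effect at 10 weeks lost its call without WT replicate 1 (0.36, adjusted p = 0.082), without KO replicate 1 (0.34, adjusted p = 0.064), without those 3 libraries (0.32, adjusted p = 0.061) and with library totals (0.29, adjusted p = 0.098). The value at 3 weeks was called without KO replicate 1 (0.42, adjusted p = 0.029). Within KO, Hand2 fell from 3 to 6 weeks by 0.70 (SE 0.13, adjusted p = 0.0013) and rose from 6 to 10 weeks by 0.83 (SE 0.13, adjusted p = 0.00034), while no change was called in WT.

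Mef2c (chromosome 13, 83504034 to 83667080, plus strand) encodes the MEF2 protein needed for looping of the embryonic heart. At 3 weeks, Mef2c was at 41.3, 46.8 and 36.8 CPM in WT and at 39.3, 41.1 and 49.1 CPM in KO. At 6 weeks, Mef2c was at 27.7, 31.8 and 27.1 CPM in WT and at 51.5, 52.4 and 47.7 CPM in KO. At 10 weeks, Mef2c was at 45.5, 38.9 and 44.3 CPM in WT and at 46.1, 46.3 and 42.1 CPM in KO. The genotypes overlapped at 3 and 10 weeks and were far apart at 6 weeks, where the WT libraries were the lowest of all 18. For Mef2c the log2 fold changes at 3, 6 and 10 weeks were 0.05 (SE 0.11, adjusted p = 0.81), 0.81 (SE 0.11, adjusted p = 2.2e-05) and 0.06 (SE 0.11, adjusted p = 0.73), and the call at 6 weeks held in every fit without 1 library. In WT, Mef2c fell from 3 to 6 weeks by 0.53 (SE 0.11, adjusted p = 0.011) and rose from 6 to 10 weeks by 0.57 (SE 0.11, adjusted p = 0.0033). The fall lost its call without WT replicate 2 at 3 weeks (adjusted p = 0.089) and without WT replicates 1 or 3 at 6 weeks (adjusted p = 0.059 and 0.062). In KO no change with age was called.

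Mef2d (chromosome 3, 88142372 to 88172086, plus strand) encodes a MEF2 protein known to mediate remodelling of the adult heart under pressure load. At 3 weeks, Mef2d was at 147, 168 and 176 CPM in WT and at 217, 214 and 188 CPM in KO. At 6 weeks, Mef2d was at 142, 183 and 191 CPM in WT and at 237, 234 and 248 CPM in KO. At 10 weeks, Mef2d was at 246, 245 and 249.9 CPM in WT and at 162, 203 and 248 CPM in KO. KO libraries lay above all WT libraries at 3 and 6 weeks, whereas at 10 weeks 2 of the 3 lay below the narrow WT range and 1 within it. Its log2 fold changes at 3, 6 and 10 weeks were 0.34 (SE 0.13, adjusted p = 0.089), 0.48 (SE 0.13, adjusted p = 0.0097) and -0.27 (SE 0.13, adjusted p = 0.13). The call at 6 weeks was lost without WT replicate 1 (0.36, adjusted p = 0.071). At 3 weeks the value was called without the 3 libraries rich in atrial transcripts (0.39, adjusted p = 0.044), and at 10 weeks it was called lower without KO replicate 3 (-0.41, adjusted p = 0.021) and with library totals (-0.40, adjusted p = 0.037). In WT, Mef2d rose from 6 to 10 weeks by 0.52 (SE 0.13, adjusted p = 0.016) and from 3 to 10 weeks by 0.59 (SE 0.13, adjusted p = 0.0034). The rise from 6 weeks was not called without WT replicate 1 at 6 weeks (adjusted p = 0.11).

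Mef2a (chromosome 7, 67231163 to 67372858, minus strand) encodes the MEF2 protein whose loss in mice gives a dilated right ventricle and disordered mitochondria. At 3 weeks, Mef2a was at 203, 237 and 176 CPM in WT and at 115, 193 and 170.2 CPM in KO. At 6 weeks, Mef2a was at 153, 164 and 160.3 CPM in WT and at 144, 147 and 115 CPM in KO. At 10 weeks, Mef2a was at 173, 165 and 169.7 CPM in WT and at 120.2, 90.5 and 80.4 CPM in KO. The genotypes overlapped at 3 weeks, and every KO library lay below every WT library at 6 and at 10 weeks. On the log2 scale its effects at 3, 6 and 10 weeks were -0.37 (SE 0.16, adjusted p = 0.14), -0.23 (SE 0.16, adjusted p = 0.34) and -0.80 (SE 0.17, adjusted p = 0.00098). The last was called in every fit without 1 library and was -0.96 without the 3 libraries rich in atrial transcripts. With no filter on low counts the value at 3 weeks was called as well (-0.37, adjusted p = 0.036). Within KO, Mef2a fell from 3 to 10 weeks by 0.72 (SE 0.17, adjusted p = 0.004), although the libraries of these 2 groups overlapped. The coding gene Lysmd4 overlaps Mef2a on the opposite strand and was at 26.1 to 27.7 CPM in WT and 14.9 to 28.0 CPM in KO at 10 weeks. Its effect at that age was -0.39 (SE 0.17, adjusted p = 0.097), and reads of the 2 genes cannot be told apart where they overlap. Of Lysmd4 and 1010001N08Rik, which overlaps Gata6, 1 was called lower in KO at 6 weeks and 0 were called at 3 or 10 weeks.

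Srf (chromosome 17, 46546839 to 46556162 in the count files, minus strand) encodes serum response factor, whose promoter with its 2 CArG boxes is printed above. At 3 weeks, Srf was at 108, 136 and 133 CPM in WT and at 195, 164 and 204 CPM in KO. At 6 weeks, Srf was at 134, 157 and 143 CPM in WT and at 139, 137 and 139 CPM in KO. At 10 weeks, Srf was at 205, 229 and 222 CPM in WT and at 204, 191 and 202 CPM in KO. All KO libraries were above all WT libraries at 3 weeks, the groups overlapped at 6 weeks, and KO lay just below WT at 10 weeks. Srf had log2 fold changes at 3, 6 and 10 weeks of 0.58 (SE 0.10, adjusted p = 0.00065), -0.07 (SE 0.10, adjusted p = 0.7) and -0.14 (SE 0.10, adjusted p = 0.35), and the first was called in every fit without 1 library. In WT, Srf rose from 6 to 10 weeks by 0.60 (SE 0.10, adjusted p = 0.001) and from 3 to 10 weeks by 0.80 (SE 0.10, adjusted p = 2e-05). In KO it fell from 3 to 6 weeks by 0.44 (SE 0.10, adjusted p = 0.0078) and rose from 6 to 10 weeks by 0.52 (SE 0.10, adjusted p = 0.0023). The fall was not called without the 3 libraries rich in atrial transcripts (-0.38, adjusted p = 0.10), and the rise was not called with library totals (0.31, adjusted p = 0.051).

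**Figure D4:**
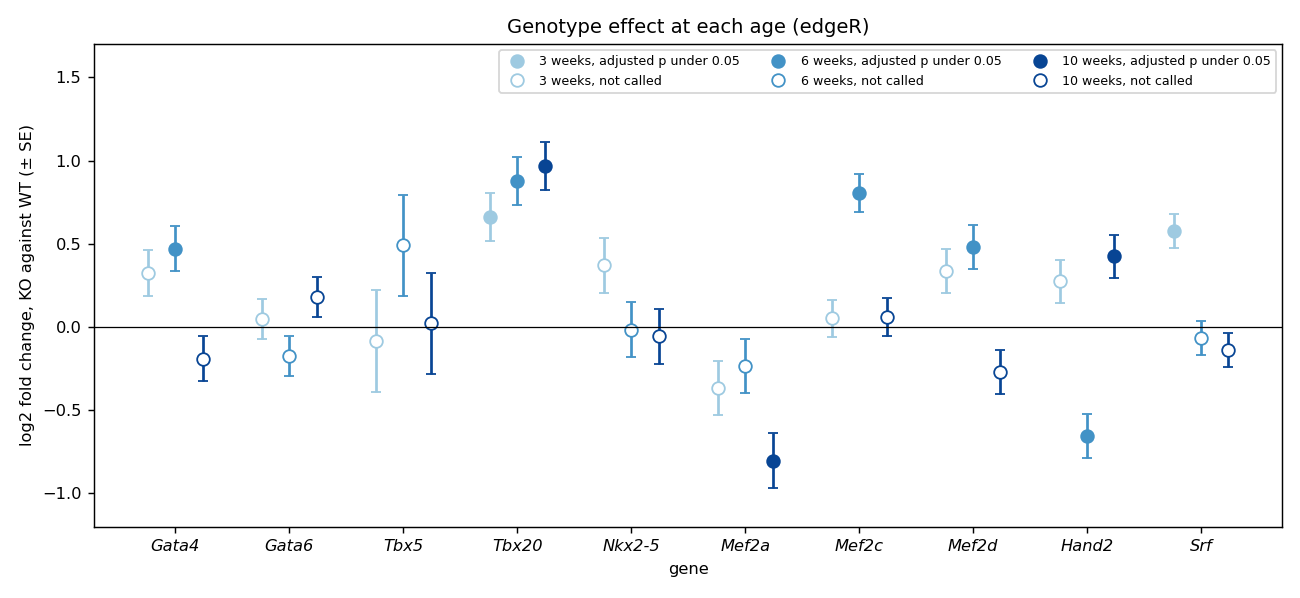
Log2 fold change of KO against WT (± SE, edgeR) for each gene at 3, 6 and 10 weeks, with filled points for an adjusted p under 0.05. Tbx20 is filled at all ages (0.66, 0.88 and 0.97), Hand2 is at -0.66 at 6 weeks and 0.42 at 10 weeks, and Mef2c is filled at 6 weeks only.

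The genotype effect itself differed between ages for 5 of the members. Between 3 and 6 weeks 3 members passed the test of this difference, where 1.59% of all genes did: Mef2c, Hand2 and Srf. Between 6 and 10 weeks 4 passed (5.75% of all genes): Gata4, Mef2c, Mef2d and Hand2. Between 3 and 10 weeks Srf alone passed (5.76% of all genes). The comparisons share libraries and are not independent. Differences for Mef2c and Hand2 between 6 and 10 weeks and for Srf between 3 and 10 weeks held in every fit without 1 library. The other 5 did not, as given with their values in the closing section.

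Changes with age were also tested within each genotype, and Srf was called higher from 6 to 10 weeks in both. In WT, 1 member changed from 3 to 6 weeks (5.18% of all genes tested were called), 4 from 6 to 10 weeks (8.77%, with 3.64% called higher) and 3 from 3 to 10 weeks (16.5%). The rises from 6 to 10 weeks in WT were those of Gata4, Mef2c, Mef2d and Srf, and no member fell. In KO, 2 members changed from 3 to 6 weeks (11.6% of all genes), 3 from 6 to 10 weeks (12.7%, with 6.52% called higher) and 1 from 3 to 10 weeks (20.1%). The rises from 6 to 10 weeks in KO were those of Tbx20, Hand2 and Srf. That of Tbx20, by 0.45 (SE 0.14, adjusted p = 0.041), lost its call without KO replicates 2 or 3 at 6 weeks and without KO replicates 1 or 2 at 10 weeks, with adjusted p from 0.059 to 0.15. It was not called either without the 3 libraries rich in atrial transcripts (0.40, adjusted p = 0.18) or with library totals (0.24, adjusted p = 0.25).

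Across the 18 libraries, the closest pair among the members was Gata4 and Mef2d, with a Pearson r of 0.91 of log2 CPM. These libraries share the groups and the scaling, so the values only describe likeness. Among 13795 genes searched, those most like each member were Tead1 (r = 0.95) and Gfpt1 (0.93) for Tbx20, Pds5b (0.97) and Dkc1 (0.93) for Mef2a, and Cyb5b (0.93) and Srrm4 (0.92) for Gata4. For Srf they were Ywhag (0.92) and Arfgef2 (0.92), for Mef2d Pcyt1a (0.91) and Gata4 (0.91), and for Nkx2-5 Tysnd1 (0.90) and Map3k10 (0.90). Lower values were found for Mef2c (Pde7b, 0.86, and Slfn8, 0.85), Hand2 (Lnx2, 0.84, and Adgrg1, 0.83), Tbx5 (Cacna2d2, 0.81, and Cyp2e1, 0.80) and Gata6 (Srsf2, 0.77, and Ammecr1l, 0.75). By rank (Spearman), the values of Tbx5 were 0.52 with Cacna2d2 and 0.73 with Cyp2e1.

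Other transcription factors of the heart were described from a list of 28, of which 25 were tested and Hand1, Isl1 and Mef2b were not. At 3 weeks 3 were higher and 2 lower, at 6 weeks 4 were higher and 0 lower, and at 10 weeks 3 were higher and 7 lower. The counts of this list and of the 4 lists after it stand beside the shares of all genes, which were 8.65% higher and 6.68% lower at 3 weeks, 11% and 12.8% at 6 weeks, and 14.6% and 14.7% at 10 weeks. Tbx18, a T-box factor of the epicardium and mural cells, was higher at each age and at 10 weeks was at 1.13, 1.06 and 0.814 CPM in WT and 6.10, 4.96 and 3.56 CPM in KO, a log2 fold change of 2.26 (SE 0.27, adjusted p = 1.7e-06). Its call at 3 weeks was lost without WT replicate 1 (0.74, adjusted p = 0.091). The summed level of 5 epicardial markers at 10 weeks was 8.37 to 14.3 CPM in WT and 25.5 to 66.3 CPM in KO, with 4 of the 5 called higher, and their part in the Tbx18 result was not tested. Tead1, the TEA domain factor that reads YAP signals and the gene most like Tbx20, rose at 10 weeks by 0.67 (SE 0.11, adjusted p = 9.4e-05). Tbx3, which keeps the conduction system from becoming working muscle, fell at 10 weeks by 1.21 (SE 0.18, adjusted p = 3.5e-05), and Prdm16, a factor of compact ventricular muscle, fell by 1.05 (SE 0.25, adjusted p = 0.0045). Casz1 was higher at 3 weeks (0.70, SE 0.17, adjusted p = 0.008), Irx5 was higher at 6 weeks (0.78, SE 0.27, adjusted p = 0.041) and Meis1 was lower at 3 weeks (-0.50, SE 0.15, adjusted p = 0.023). Casz1 lost its call without WT replicate 1 at 3 weeks (adjusted p = 0.058), Irx5 in 5 of 6 and Meis1 in 4 of 6 fits without 1 library. Irx5 was not called without the 3 libraries rich in atrial transcripts either (adjusted p = 0.062). Without the 3 libraries rich in atrial transcripts the list of 24 tested had 2 higher and 1 lower at 3 weeks, 4 and 0 at 6 weeks, and 2 and 4 at 10 weeks.

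Partners of the 10 factors, 27 coactivators, corepressors and upstream enzymes, were all tested, with 6 higher and 1 lower at 3 weeks, 6 and 4 at 6 weeks, and 5 and 7 at 10 weeks. Leaving out the 3 libraries rich in atrial transcripts gave 8 and 3, 6 and 3, and 5 and 6. Hopx, a homeodomain protein that binds SRF and blocks it, was at 386, 304 and 363 CPM in WT and 104, 148 and 139.6 CPM in KO at 6 weeks. Its level was lower in every KO library than in every WT library at 6 and 10 weeks, by 1.43 (SE 0.14, adjusted p = 2.4e-07) and 1.18 (SE 0.14, adjusted p = 2.2e-06). Lmcd1, a LIM protein that holds GATA6 off DNA, was at 47.7, 44.6 and 50.7 CPM in WT and 291, 501 and 95.6 CPM in KO at 10 weeks, a log2 fold change of 2.63 (SE 0.50, adjusted p = 0.0017). Jarid2, a chromatin protein that represses heart genes with GATA4 and NKX2-5, fell at 10 weeks by 0.95 (SE 0.14, adjusted p = 3.5e-05), and Smyd1, a muscle methyltransferase, rose by 0.73 (SE 0.15, adjusted p = 0.00086). Myocd, the SRF coactivator myocardin, rose at 3 weeks by 0.70 (SE 0.16, adjusted p = 0.0038). Csrp2, a relative of MLP that bridges SRF and GATA factors, fell at 3 weeks by 0.56 (SE 0.16, adjusted p = 0.022) and at 6 weeks by 1.10 (SE 0.17, adjusted p = 4.4e-05). Yap1 rose at 6 weeks by 0.54 (SE 0.10, adjusted p = 0.00029). The values of Mrtfb at 3 weeks (0.67, SE 0.21, adjusted p = 0.041) and Zfpm1 at 6 weeks (0.53, SE 0.16, adjusted p = 0.02), and the fall of Csrp2 at 3 weeks, lost their calls in 4, 3 and 3 of 6 fits without 1 library.

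Textbook targets of GATA, NKX and T-box factors numbered 17, of which 16 were tested. At 3 weeks 4 were higher and 0 lower, at 6 weeks 3 and 4, and at 10 weeks 5 and 3, with median log2 fold changes of 0.18, 0.09 and 0.33. Nppa, whose promoter with GATAA is printed above, was at 235, 301 and 192 CPM in WT and 10308, 17428 and 13596 CPM in KO at 10 weeks. Its log2 fold change was 3.47 (SE 0.34, adjusted p = 8.4e-06), 4.48 (SE 0.35, adjusted p = 4.2e-07) and 5.83 (SE 0.38, adjusted p = 3.8e-08) at 3, 6 and 10 weeks. Ankrd1, a titin-binding stress protein, was higher by 2.81, 3.59 and 4.05 at the 3 ages, all called, although the first was not in a fit of the 3-week libraries alone (adjusted p = 0.057). Tnni3, cardiac troponin I, fell at 6 weeks by 1.04 (SE 0.12, adjusted p = 1.8e-06) and at 10 weeks by 0.61 (SE 0.12, adjusted p = 0.00055). Slc8a1, the sodium-calcium exchanger, fell at 6 weeks by 0.84 (SE 0.21, adjusted p = 0.0071), and Agtr1a, the angiotensin receptor gene, fell at 10 weeks by 0.80 (SE 0.14, adjusted p = 0.00019). Without the 3 libraries rich in atrial transcripts the counts for this list were 5 and 0, 3 and 3, and 5 and 3.

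MEF2 targets numbered 15, all tested. At 3 weeks 5 were higher and 0 lower, at 6 weeks 2 and 7, and at 10 weeks 4 and 2, with medians of 0.28, -0.32 and 0.24. Of all genes, 11% were called higher and 12.8% lower at 6 weeks. Xirp2, an actin-binding protein of the intercalated disc, was at 225, 289 and 243 CPM in WT and 8559, 4587 and 2356 CPM in KO at 6 weeks. Its effect was 3.18 (SE 0.71, adjusted p = 0.0098), 4.36 (SE 0.75, adjusted p = 0.00098) and 3.96 (SE 0.74, adjusted p = 0.0014) at the 3 ages, and that at 3 weeks lost its call without WT replicate 1 (adjusted p = 0.055) and in a fit of the 3-week libraries alone (adjusted p = 0.057). Xirp1, its relative, rose at 10 weeks by 3.51 (SE 0.57, adjusted p = 0.00054), and Des, the intermediate filament desmin, rose at 6 weeks by 1.26 (SE 0.16, adjusted p = 6.8e-06). Ckm, muscle creatine kinase, fell at 6 weeks by 1.21 (SE 0.12, adjusted p = 1.6e-07) and at 10 weeks by 0.62 (SE 0.12, adjusted p = 0.00035). Hrc, a calcium-binding protein of the sarcoplasmic reticulum, fell at 6 weeks by 0.84 (SE 0.12, adjusted p = 3.4e-05), and Slc2a4, the insulin-regulated glucose transporter, fell at 10 weeks by 0.60 (SE 0.12, adjusted p = 0.00092). Nr4a1 at 3 weeks (2.71, SE 0.72, adjusted p = 0.024) lost its call in 4 of 6 fits without 1 library. Without the 3 libraries rich in atrial transcripts Nr4a1 was not called at 3 weeks (adjusted p = 0.074), and for the 15 targets the counts were 4 and 1, 2 and 6, and 6 and 2.

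SRF targets numbered 23, all tested. At 3 weeks 7 were higher and 1 lower, at 6 weeks 7 and 3, and at 10 weeks 10 and 4, with medians of 0.17, -0.26 and 0.09. At 6 weeks the median was thus below 0 while more targets were called higher than lower. Acta1, whose CArG box is printed above, was at 265, 306 and 546 CPM in WT and 3621, 5687 and 3421 CPM in KO at 3 weeks. Its log2 fold change was 3.51 (SE 0.30, adjusted p = 1.4e-06), 4.03 (SE 0.31, adjusted p = 1.9e-07) and 4.94 (SE 0.32, adjusted p = 2.5e-08) at the 3 ages. Acta2, smooth muscle alpha-actin, was lower in KO, at 339, 369.5 and 411 CPM in WT and 75.4, 90.9 and 73.1 CPM in KO at 6 weeks. It fell by 0.94 (SE 0.23, adjusted p = 0.012), 2.23 (SE 0.24, adjusted p = 5.7e-06) and 2.39 (SE 0.24, adjusted p = 2.1e-06) at the 3 ages. Cnn1, smooth muscle calponin, had values of 5.04, 5.79 and 5.23 (adjusted p = 0.03, 0.011 and 0.014), and none of the 3 was called by limma. At 3 weeks its value was 2.26 without KO replicate 2 (adjusted p = 0.22) and was not called in each fit that left out 1 WT library (adjusted p from 0.079 to 0.11). It lost its call at 6 weeks without WT replicate 1 (adjusted p = 0.052) and at 10 weeks without WT replicate 1 or 3 (0.054 and 0.056). The summed level of 7 mural cell markers at 10 weeks was 792 to 945 CPM in WT and 665 to 766 CPM in KO. Of these 7 markers, 2 were called higher and 3 lower in KO at that age. The part of mural cells in these smooth muscle genes was not tested. Fhl2, a LIM protein that competes with myocardin-related coactivators for SRF, fell at 6 weeks by 0.80 (SE 0.12, adjusted p = 3.6e-05) and at 10 weeks by 0.49 (SE 0.12, adjusted p = 0.003). Leaving out the 3 atrial-rich libraries gave 7 and 2, 5 and 5, and 9 and 5.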

How the data were processed

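RNA of 18 left ventricular samples was extracted from frozen tissue (RNeasy Plus Universal Mini Kit) and made into NEBNext Ultra II libraries, per the labels' protocols. The authors deposited raw counts per gene under Ensembl identifiers. Trimmomatic 0.36, STAR 2.5.2b, featureCounts from Subread 1.5.2 and the build GRCm38 are named in the submitters' processing notes. How strand and multimapping reads were handled, and which annotation release was used, is not given in the sources used here.

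Identifiers were matched to GENCODE M21 (49056 of 49315). Coordinates of the genes are those of that annotation, except for Nkx2-5 and Srf, where those of the count files are printed. The annotation and the count files have the same coordinates for 7 of the 10 genes, while Nkx2-5, Srf and Gata6 differ. In R 4.3.3, edgeR 4.0.16 was used: filterByExpr (minimum count 10, minimum total 15) kept 15778 genes, including all 10, and 1 robust quasi-likelihood model with TMM scaling and a mean per group was fitted to all 18 libraries. The test was also run on simulated counts, for KO against WT at 10 weeks and with the same dispersion for every gene. That simulation held no library unlike its group and tested no difference between ages, so it does not cover these. Genes were called at an adjusted p under 0.05 over all genes tested. Alternatives were DESeq2 1.42.0, limma 3.58.1 (voom), other scalings, no filter, single ages, a replicate block, and fits without single libraries or without those rich in atrial transcripts. A prior count of 2 was used for correlations of log2 CPM. The common dispersion was 0.0252, and no library was a copy of another.

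The genes, lists and tests were chosen with earlier results of these data known. Named list genes are, per genotype comparison, the 2 largest called rises and falls whose higher group averaged at least 2 CPM and whose genotypes did not overlap. Per member, the 2 genes with the highest Pearson r are named.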

Additional observations from a re-analysis of the deposited data

Results flagged for a closer look

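The difference of the genotype effect between 2 ages was tested in the same edgeR fit, and 8 such differences among the 10 genes passed. They share libraries, since each age enters 2 of the 3 comparisons.

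Mef2c had a larger effect at 6 weeks than at 3 weeks (0.76, SE 0.16, adjusted p = 0.019) and a smaller one at 10 than at 6 weeks (-0.74, SE 0.16, adjusted p = 0.0087). The first was not called without WT replicate 2 at 3 weeks (adjusted p = 0.069), without WT replicate 1 or 3 at 6 weeks (0.059 and 0.067) or without KO replicate 2 at 6 weeks (0.055). A WT level of Mef2c of 41.6 ± 5.01, 28.9 ± 2.54 and 42.9 ± 3.55 CPM at 3, 6 and 10 weeks (mean ± SD, n = 3) stood beside a KO level of 43.2 ± 5.23, 50.5 ± 2.51 and 44.8 ± 2.38 CPM.

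Hand2 had a lower effect at 6 than at 3 weeks (-0.93, SE 0.18, adjusted p = 0.012) and a higher one at 10 than at 6 weeks (1.08, SE 0.18, adjusted p = 0.0012). The first was not called without WT replicate 3 at 6 weeks (adjusted p = 0.054). Its KO level at the 3 ages was 91.7 ± 17.3, 56.6 ± 2.96 and 100.3 ± 15 CPM, beside 75.7 ± 5.46, 89.1 ± 8.56 and 74.7 ± 5.76 CPM in WT.

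Srf had a lower effect at 6 than at 3 weeks (-0.64, SE 0.15, adjusted p = 0.027) and at 10 than at 3 weeks (-0.72, SE 0.15, adjusted p = 0.0056). The first was lost in 8 of 12 fits without 1 library, with adjusted p up to 0.082 without WT replicate 3 at 6 weeks, and with library totals (-0.54, adjusted p = 0.099). The second was not called without the 5 libraries over 5 times the median atrial marker sum (-0.68, adjusted p = 0.066).

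Gata4 had a lower effect at 10 than at 6 weeks (-0.66, SE 0.19, adjusted p = 0.045), lost in 9 of 12 fits without 1 library with adjusted p up to 0.13, and it was -0.43 (adjusted p = 0.075) without KO replicate 1 at 10 weeks. Mef2d had a lower effect at 10 than at 6 weeks (-0.75, SE 0.18, adjusted p = 0.02), lost without WT replicate 1 at 6 weeks (adjusted p = 0.065) and without KO replicate 2 at 10 weeks (adjusted p = 0.051). Without the 3 libraries rich in atrial transcripts the differences for Gata4 (-0.43, adjusted p = 0.12), Mef2d (-0.56, adjusted p = 0.078) and Srf between 3 and 6 weeks (-0.57, adjusted p = 0.12) were not called. The part of those libraries' atrial content in these differences was not tested beyond this.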

How the results depend on the processing

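Among the 32 called results on the 10 genes (genotype effects, their differences between ages and changes with age), all 32 kept their direction and call with DESeq2, limma voom, no filter on low counts, no mitochondrially encoded genes and the replicate block; with DESeq2 size factors in edgeR 31 kept their call and with library totals 28. Library totals moved the median of all genes by -0.14 at 10 weeks, and DESeq2 size factors lost the difference for Gata4 (adjusted p = 0.056). Tbx20 at each age was called under each of these settings.

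Values near 0, and Tbx5 at 10 weeks, changed sign. With library totals, Nkx2-5 and Srf at 6 weeks were 0.062 and 0.014, and Tbx5 and Mef2c at 10 weeks were -0.11 and -0.079. Tbx5 at 10 weeks was -0.18 with limma voom. Without the 5 libraries over 5 times the median atrial marker sum, Gata6 and Mef2c at 3 weeks were -0.10 and -0.13, and Gata4, Tbx5, Nkx2-5 and Mef2c at 10 weeks were 0.027, -0.60, 0.12 and -0.023. Without the 3 over 100 CPM, Gata6 and Mef2c at 3 weeks were -0.090 and -0.060, and Gata4, Tbx5 and Nkx2-5 at 10 weeks were 0.029, -0.57 and 0.094. The cause of these changes was not tested.

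With 1 library left out, values ran from -0.080 to 0.15 for Gata6 at 3 weeks, -0.050 to 0.15 for Mef2c at 3 weeks, -0.088 to 0.11 for Nkx2-5 at 6 weeks, -0.28 to 0.041 for Gata4, -0.55 to 0.36 for Tbx5, -0.22 to 0.11 for Nkx2-5 and -0.0038 to 0.13 for Mef2c at 10 weeks. All genes called at 3 weeks ran from 1309 (without WT replicate 1; 1593 without WT replicate 2) to 2542, against 2419 with every library. Called members ran from 2 to 3 at 3 weeks, 3 (without WT replicate 1) to 5 at 6 weeks and 2 to 4 at 10 weeks. Member calls over the 3 differences ran from 4 (without WT replicate 3 at 6 weeks; 5 without KO replicate 2 at 6 weeks) to 9, against 8. Over age in WT they ran from 5 (without WT replicate 1 at 6 weeks) to 9, against 8, and over age in KO from 5 to 9, against 6. With no filter on low counts 4 members were called at 3 weeks, against 2. Without the 5 libraries richest in atrial markers 4 member differences were called, against 8, from fewer samples.

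The replicate numbers pair no samples by the labels, and the correlation of deviations of same-numbered libraries ran from -0.084 to 0.085. With the number as a replicate block, 2362, 3717 and 4557 genes were called at 3, 6 and 10 weeks, against 2419, 3751 and 4625. Under this block Tbx5 at 10 weeks was -0.040, and among the listed genes Mrtfb at 3 weeks (adjusted p = 0.054) and Irx5 at 6 weeks (adjusted p = 0.064) lost their calls.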
